A study of Mus musculus with 12 samples.

Results

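Macrophage migration inhibitory factor (Mif), its homolog D-dopachrome tautomerase (Ddt), the invariant chain Cd74, to which MIF binds at the cell surface, and Cd44, the signalling partner of CD74, were followed through 15 cell classes of the neonatal mouse liver. They are 4 of the 32285 genes in the deposited UMI tables and were matched by symbol. Mif was selected on its measured level in monocytes, which was higher in anemic mice in these data, so its values in monocytes are given as a description, without a test, and the other classes come from the same mice. Livers of C57BL6/J pups were dissociated at 11 days of age and profiled by droplet-based single-cell RNA-seq with 1 library per mouse. The 6 anemic mice had 20 µL of blood per g body weight drawn from the facial vein on each of 5 days, from day 2 to day 10, to a hematocrit of 20 to 24%. The 6 control mice were handled alike and received a needle stick without blood loss. The pups of each litter were assigned to the groups at random, but the litters are not named in the labels.

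MIF is a cytokine that many cells hold preformed in the cytosol and release on stimulation, and both MIF and its homolog D-DT carry a tautomerase fold. Released MIF binds CD74, the invariant chain better known for guiding MHC class II molecules through the cell, and CD74 needs CD44, a receptor for hyaluronan, to pass on the signal. MIF also binds the chemokine receptors CXCR2, CXCR4 and ACKR3. In cultured cells, Mif is among the genes that the hypoxia-inducible factor HIF-1 can raise, and HIF-1 binds DNA at sites with the core ACGTG.

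Mif (ENSMUSG00000033307) is a short gene of 888 bases on the minus strand of chromosome 10 at chr10:75859353-75860240 (GRCm38, GENCODE M21). Ddt (ENSMUSG00000001666) lies on the same strand 85.9 kb away, at chr10:75771230-75773414. Cd74 (ENSMUSG00000024610) is on chromosome 18, on the plus strand, and Cd44 (ENSMUSG00000005087) spans 90525 bases of chromosome 2 on the minus strand, at chr2:102811141-102901665. Transcripts of Mif share stretches of 50 bases with 5 other annotated genes, most of them predicted genes or pseudogenes (Gm10169, Gm16379, Gm5228, Gm8762 and Mif-ps3), and those of Ddt with Gm20441. None of these 6 copies is counted in the tables, so reads that could come from them cannot be told apart from those of Mif and Ddt.

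The stretches around the transcription starts are shown because Mif is discussed as a hypoxia-responsive gene. They are RefSeq sequences of GRCm38.p6, written 5′ to 3′ on the minus strand, and the capitals mark ACGTG, its complement CACGT, a palindrome of both (CACGTG) or the cAMP response element TGACGTCA.

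Mif, chr10:75860278-75860347, 70 bases before the start: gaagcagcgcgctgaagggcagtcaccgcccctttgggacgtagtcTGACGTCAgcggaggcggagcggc
Mif, chr10:75860228-75860257, bases 21 to 50 after the start: gagctgggtCACGTagctcaggtccctggc
Ddt, chr10:75773504-75773573, from 199 to 130 bases before the start: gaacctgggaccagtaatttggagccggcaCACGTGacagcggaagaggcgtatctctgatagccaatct
Cd44, chr2:102901666-102901735, 70 bases before the start: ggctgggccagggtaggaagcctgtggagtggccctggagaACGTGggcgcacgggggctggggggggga

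The Mif window holds TGACGTCA 24 bases before the RefSeq start and CACGT 30 bases after it. The Ddt window holds CACGTG 169 bases before the start, and the Cd44 window ACGTG 29 bases before the start. ACGTG on either strand occurs in 19.6% of 32851 whole RefSeq promoter windows and TGACGTCA in 1.79%. These windows are longer than the stretches shown, which are parts of them. Of the 14 windows found for a list of HIF-1 target genes, 8 (57.1%) hold ACGTG. These letters were picked after the sequences had been read and describe the windows, not binding.

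The libraries held 14184 to 21186 kept cells and 45751640 to 74344118 UMIs, with a median of 1769 to 2889.5 UMIs per cell, and 206146 of 207537 barcodes were kept. Classes were named from marker genes, of which 126 of 137 were highest in their own class. The T-cell marker Cd3g was higher in NK-like (773 CPM) than in T-like cells (372 CPM), and cluster 28 of the NK-like class had 8 T-cell markers raised. T cells within the NK-like class can therefore not be excluded. No class was given to 17379 cells, which made up 9.05% of the cells from control mice and 7.87% of those from anemic mice. The largest unnamed cluster, cluster 10 with 6570 cells, had 9 T-cell and 8 NK markers raised. The T-like class, with 3300 cells, may therefore hold only part of the T cells. Pairs of libraries shared 56 to 122 barcodes, and all 12 carry the same batch label. The libraries anemia 2 and anemia 3 stood apart, and results that rest on them are also given without them. They had 26.2% and 10.0% of their cells in the monocyte-like class, against 1.63% to 2.68% in the other 10 mice. Y-linked transcripts marked 2 control and 4 anemic mice as male, so that sex was not balanced. Called doublets made up 66.3% of the stellate-like and 85.2% of the cholangiocyte-like cells and were kept. A level in CPM is the UMI count of a gene in a class of a mouse, scaled to the same UMI total in every class and mouse, and the precision of low values is limited by the UMIs counted.

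Mif was found in every class, with its highest mean over 12 mice in hepatocyte-like cells. Their mean was 673 ± 364 CPM (SD, n = 12 mice), above macrophage-like cells (483 ± 258 CPM) in 12 of 12 mice. Over the 6 control mice alone, hepatocyte-like (341 CPM) and pre-B-like cells (344 CPM) had close means, against 1004 and 401 CPM over the 6 anemic mice. Macrophage-like and pre-B-like cells (372 ± 42.9 CPM) changed places with the group, as the former were higher in 6 of 6 anemic mice and lower in 6 of 6 control mice. The order went on through NK-like cells (288 ± 178 CPM), cholangiocyte-like cells (232 ± 39.0 CPM), endothelial-like cells (202 ± 87.9 CPM), stellate-like cells (199.7 ± 62.6 CPM), B-like cells (197 ± 28.6 CPM) and T-like cells (173 ± 24.4 CPM). The order of endothelial-like, stellate-like and B-like cells also turned with the group, with means of 124, 152 and 186 CPM over 6 control mice and of 279, 248 and 208 CPM over 6 anemic mice. So did that of NK-like and cholangiocyte-like cells, with means of 199 and 229 CPM over control mice and of 377 and 235 CPM over anemic mice. Monocyte-like cells (161 ± 133 CPM) and conventional dendritic-like cells (145 ± 82.8 CPM) were not separated either. Plasmacytoid dendritic-like cells (129 ± 47.9 CPM) and basophil or mast-like cells (97.04 ± 43.2 CPM) came next, and neutrophil-like (89.5 ± 87.5 CPM) and erythroid-like cells (75.5 ± 40.4 CPM) came last and overlapped. These SDs hold the difference between control and anemic mice as well as that between mice of a group. Counted over all cells, 26.6% of the Mif UMIs came from macrophage-like, 11.7% from hepatocyte-like, 11.5% from endothelial-like and 10.9% from pre-B-like cells.

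**Figure D1:**
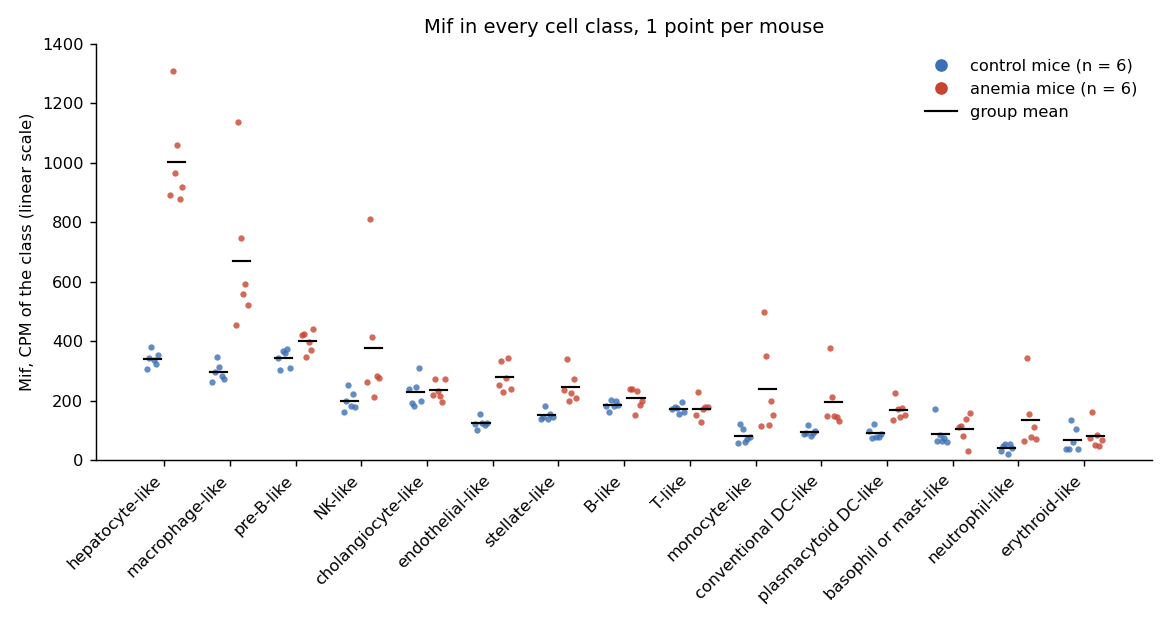
Mif level (CPM, linear axis) in each of 15 cell classes, ordered by the mean over 12 mice, with 1 point per mouse (blue control, red anemia) and a black line at each group mean. In hepatocyte-like, macrophage-like, endothelial-like and stellate-like cells, and in both dendritic-like classes and neutrophil-like cells, every red point lies above every blue point.

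Ddt was concentrated in hepatocyte-like cells, at 580 ± 169 CPM (n = 12), and 47.1% of its UMIs came from them. The next class, cholangiocyte-like cells, had 85.5 ± 14.5 CPM and was lower in 12 of 12 mice. All other classes lay between 59.3 ± 4.94 CPM in pre-B-like and 19.5 ± 3.62 CPM in endothelial-like cells, and neighbours there mostly overlapped.

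Cd74 was highest in conventional dendritic-like cells (45344 ± 4313 CPM), ahead of B-like (20995 ± 3050 CPM) and plasmacytoid dendritic-like cells (7553 ± 1604 CPM), an order held in 12 of 12 mice at both steps. All 3 classes present antigen on MHC class II. Monocyte-like cells followed at 3646 ± 2235 CPM and macrophage-like cells at 2074 ± 1450 CPM, the former higher in 10 of 12 mice. The lowest levels, 116 ± 86.0 CPM in T-like and 113 ± 45.7 CPM in erythroid-like cells, were not separated. With each cell thinned to 1000 UMIs, 4.73% of erythroid-like cells, which should lack Cd74, still had a UMI of it, against 99.8% of conventional dendritic-like cells. The median depth was 1275 UMIs in the former and 5237 in the latter. Shares at or below that of erythroid-like cells were read as background.

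Cd44 was highest in the myeloid classes. Monocyte-like cells had 2028 ± 345 CPM and macrophage-like cells 1994 ± 274 CPM, with the former higher in 5 of 6 control mice and 1 of 6 anemic mice, and neutrophil-like cells had 1244 ± 255 CPM. Plasmacytoid dendritic-like cells had 831 ± 114 CPM and conventional dendritic-like cells 532 ± 104 CPM. The lowest level was 14.2 ± 6.69 CPM in endothelial-like cells, lower than in any other class on average. Macrophage-like cells, being numerous, gave 55.6% of all Cd44 UMIs and monocyte-like cells 13.3%. Cd44 and Cd74, which act together as the MIF receptor, thus had their highest levels in different classes, and both were in the upper 5 in monocyte-like, macrophage-like, plasmacytoid and conventional dendritic-like cells.

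**Figure D2:**
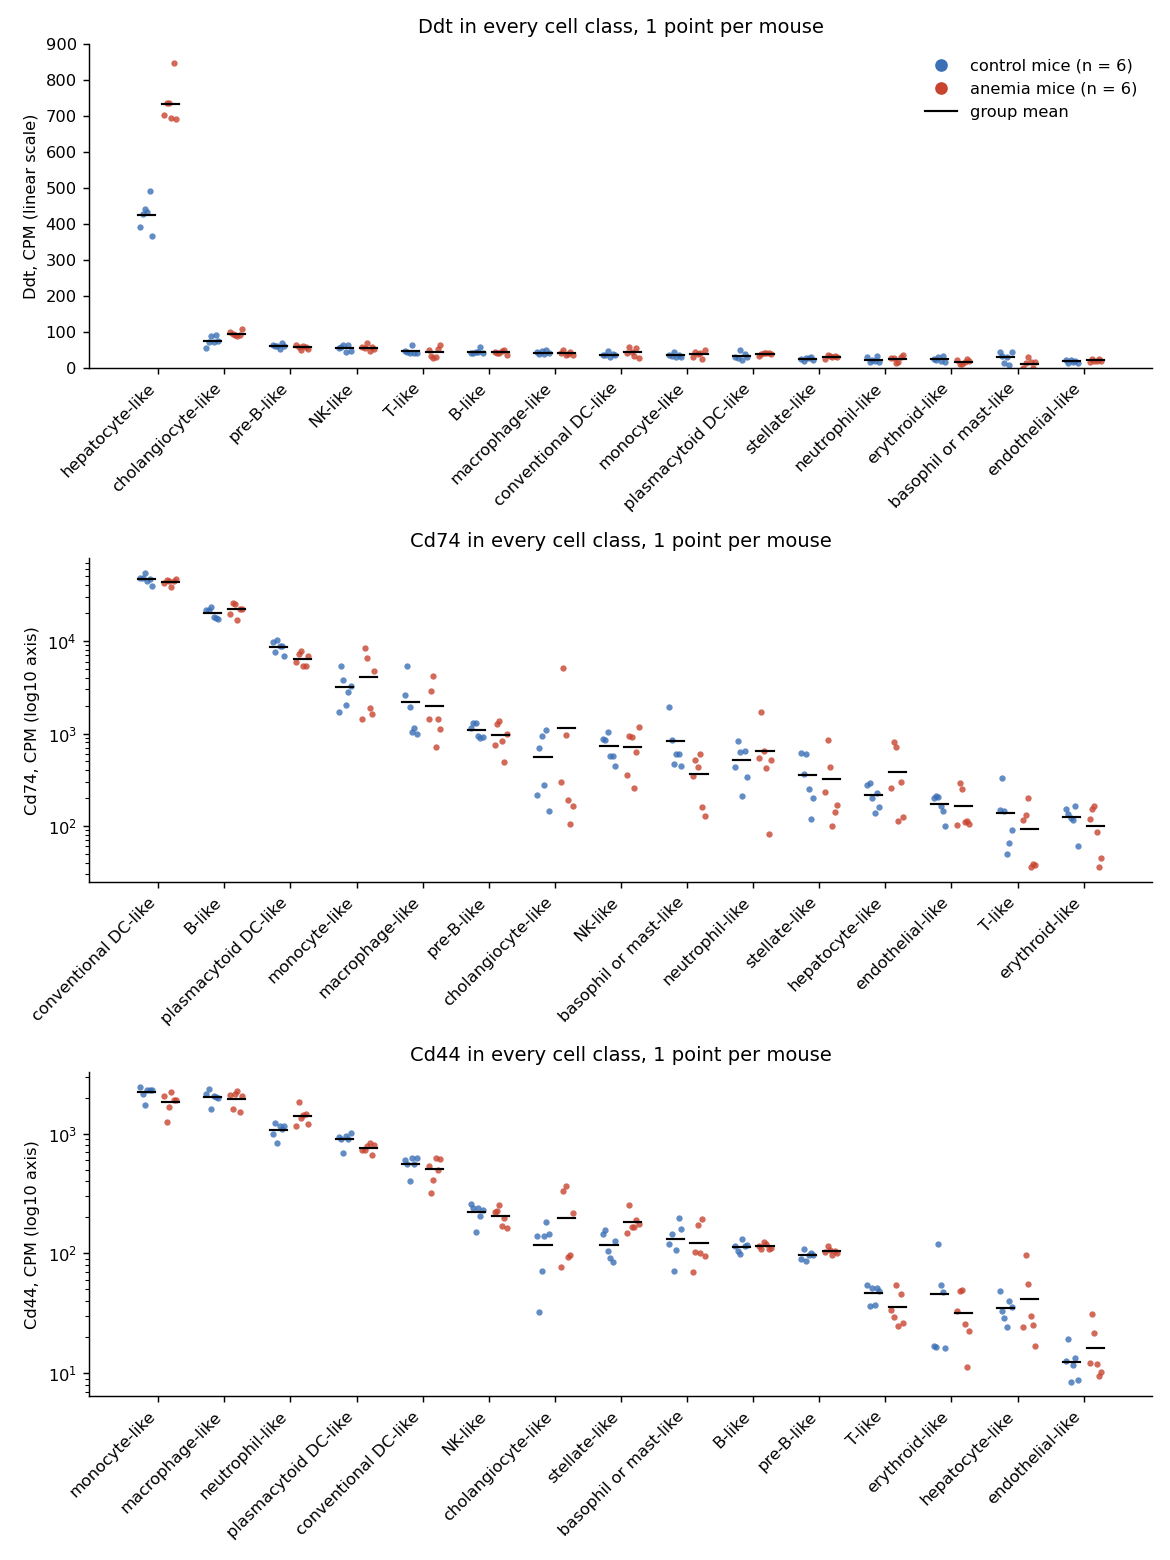
Levels of Ddt (CPM, linear axis), Cd74 and Cd44 (CPM, log10 axes) in each of 15 cell classes, ordered by the mean over 12 mice, with 1 point per mouse (blue control, red anemia) and a black line at each group mean. Ddt stands apart in hepatocyte-like cells, Cd74 in antigen-presenting classes, where it reaches 45344 CPM on average, and Cd44 in myeloid classes.

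The genes whose class means were most like those of a member, by Pearson's r over 15 classes among 13846 genes, were named as a description, since the classes share their libraries. For Mif they were Cox15 (r = 0.944), needed for heme A synthesis in mitochondria, Psmc1 (r = 0.938), a proteasome ATPase, and Nop10 (r = 0.929), part of small nucleolar ribonucleoproteins. For Ddt they were the mitochondrial enzymes and subunits Acadvl (r = 0.966), Etfa (r = 0.963) and Suclg1 (r = 0.946). Cd74 was closest to the MHC class II chains H2-Ab1 (r = 0.967) and H2-Eb1 (r = 0.952) and their activator Ciita (r = 0.946). Cd44 was closest to the myeloid surface receptor genes Nfam1 (r = 0.951), Clec12a (r = 0.918) and Csf2ra (r = 0.913).

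The question of the study was whether anemia from blood loss changes how immune cells develop in the neonatal liver. Here classes of other liver cells were compared as well. UMIs were added up within each class of each mouse. The 6 anemic mice were compared with the 6 controls by edgeR's quasi-likelihood test with Benjamini-Hochberg adjustment over all genes of the class. Outside the monocyte-like class, 10 of 55 tests of a member passed an adjusted p of 0.05, and all 10 were higher in anemic mice. Across all genes in these 14 classes, 8.57% of 157414 tests passed, 4.2% with a higher level in anemic mice. Mif rose in 6 of 14 classes, Ddt in 2 of 13, Cd74 in 1 of 14 and Cd44 in 1 of 14. The fold changes are scaled to the tested genes with TMM factors, and this moved the median gene by 0.39 on the log2 scale in hepatocyte-like and in erythroid-like cells and by 0.11 in endothelial-like cells relative to the total UMIs, but by less than 0.1 elsewhere. The changes below are relative to that median. The share of all genes called higher differed widely between classes, and where Mif was not called it was 0.65% in B-like, 0.774% in pre-B-like, 0.519% in T-like, 0.216% in NK-like, 0.167% in neutrophil-like, 0.41% in erythroid-like, 0.285% in basophil or mast-like and 0.02% in cholangiocyte-like cells.

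Among the 6 classes in which Mif was called, it rose most in hepatocyte-like cells. The lowest, median and highest control mice had 309, 339.8 and 380 CPM, and the anemic mice had 878, 943 and 1308 CPM. The groups did not overlap, as was true of 8.19% of the genes tested in this class in the same direction, and 27.8% of its genes passed the test with a higher level. The log2 fold change was 1.87 ± 0.11 (SE; adjusted p = 3.22e-09) and stayed between 1.49 and 1.94 in 25 alternatives, all past the threshold. Among these, the alternative with fewer hepatocyte and globin UMIs keeps all cells of this class and repeats the fit as reported. With cells thinned to 1000 UMIs, the share with a Mif UMI was 28.4 ± 2.07% in control and 57.8 ± 5.57% in anemic mice (44.6 ± 4.87% and 66.8 ± 5.25% unthinned). Thinning left out 2917 control and 4533 anemic cells that were shallower. The difference was seen in each of the 4 clusters of the class, with means of 715 and 1438 CPM in cluster 14 and of 226 and 460 CPM in cluster 20 for control and anemic mice. Cluster 14 held 1528 control and 4027 anemic cells, so that the makeup of the class differed between groups as well. Among males, the 2 control mice averaged 326 CPM and the 4 anemic mice 914 CPM. Among females, the 4 control mice averaged 349 CPM and the 2 anemic mice 1184 CPM. Globin UMIs in these cells were also higher in anemic mice, 8407 to 28457 CPM against 1571 to 7741 CPM, with 0 of 4 globin genes at 0, and their part in the result was not tested.

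In macrophage-like cells, Mif was at 264, 291 and 346 CPM in the lowest, median and highest control mice and at 454, 575 and 1137 CPM in the anemic mice. Every anemic mouse was above every control mouse, which held for 0.904% of the genes tested in this class, and 1.42% passed with a higher level. In the fit Mif was 1.28 ± 0.21 higher on the log2 scale (adjusted p = 0.00828), and 25 of 25 alternatives passed. Without anemia 2 and anemia 3, whose levels of 1137 and 749 CPM were the highest, it was 0.88 (adjusted p = 0.000235). The thinned share of cells with a Mif UMI was 23.3 ± 1.87% in control and 43.0 ± 10.6% in anemic mice. Macrophage-like cells of control mice lay mainly in cluster 3, with 6308 of their cells, where Mif averaged 301 CPM over 6 control mice and 602 CPM over 5 anemic mice. Cluster 26 was mostly anemic, with 460 control and 2594 anemic cells, and had means of 262 and 528 CPM, with overlapping ranges of 225 to 301 CPM and 193 to 1124 CPM. The summed cell cycle list ran from 273 to 665 CPM in controls and from 188 to 1025 CPM in anemic mice, and 0 of its 10 genes passed the test. Globin UMIs were at 910 to 6135 CPM in controls and at 3402 to 15280 CPM in anemic mice, with 0 of 4 globin genes and 3 of 10 tested erythroid markers called higher, and their part in the result was not tested.

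Endothelial-like cells showed a rise of similar size. Control mice had 101, 124 and 155 CPM of Mif and anemic mice 230.5, 265 and 342 CPM as lowest, median and highest value, without overlap (2.07% of the genes of this class), with 7.89% of its genes called higher. Its log2 fold change was 1.30 ± 0.13 (adjusted p = 1.39e-05), past the threshold in 25 of 25 alternatives. In the largest cluster, cluster 2, with 4425 control and 4920 anemic cells, the ranges were 91.4 to 145 CPM and 217 to 329 CPM. Cluster 6 held 6474 control and 1707 anemic cells, with 112 to 141 CPM and 220 to 403 CPM, so that the groups filled the clusters unequally. The thinned share of cells with a Mif UMI was 11.1 ± 1.02% in control and 22.4 ± 2.24% in anemic mice. Globin UMIs were 1026 to 3243 CPM in controls and 3804 to 7740 CPM in anemic mice. Called higher were 8 of 11 erythroid and 2 of 10 macrophage markers, and 5 of 10 B-cell markers were called lower. Hepatocyte, neutrophil and conventional dendritic markers were called in both directions. The part of this RNA in the result was not tested.

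In stellate-like cells, control mice had 138, 146 and 183 CPM of Mif and anemic mice 200.0, 231 and 342 CPM. The groups did not overlap (2.32% of the genes of this class), with 8.36% of its genes called higher, and the log2 fold change was 0.81 ± 0.13 (adjusted p = 0.00114). Without called doublets it was 0.31 (adjusted p = 0.156), the 1 alternative of 25 that ended the call. The class held cells of more than 1 kind by their leading genes, which were Mfap4, Col1a1, Lum and Eln in cluster 21 (3701 cells), Colec11 and Ecm1 among others in cluster 31 (2906 cells) and the smooth muscle genes Acta2, Tagln and Myh11 in cluster 52 (356 cells). The clusters differed in Mif as well, since cluster 31 had 141 to 177 CPM in controls and 287 to 440 CPM in anemic mice, while in cluster 21 the ranges of 128 to 189 CPM and 113 to 344 CPM overlapped. Cluster 31 held 2070 control and 836 anemic cells. Globin UMIs in stellate-like cells were at 969 to 3703 CPM in controls and at 5686 to 14023 CPM in anemic mice, and 8 of 10 tested erythroid markers were called higher and 1 lower. Of the neutrophil markers, 6 of 9 tested were called higher and 1 lower, and of 10 hepatocyte markers 1 was called higher and 3 lower. The part of this RNA in the result was not tested.

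Plasmacytoid dendritic-like cells had 73.3, 83.7 and 122 CPM of Mif in the lowest, median and highest control mice and 136, 162 and 228 CPM in the anemic mice. The groups did not overlap (0.51% of the genes of this class) and 0.42% of the genes were called higher. This gave a log2 fold change of 0.90 ± 0.14 (adjusted p = 0.00145), and 24 of 25 alternatives passed, the joint voom model not (0.91, adjusted p = 0.0686). Neutrophil markers were at 51.0 to 183 CPM in controls and at 58.5 to 561 CPM in anemic mice, with 3 of 6 tested called higher, and globin at 432 to 11272 CPM and 4638 to 30939 CPM. Hepatocyte markers were at 2976 to 5215 CPM and 912 to 3215 CPM with 4 of 10 called lower and 1 higher, and 2 of 10 macrophage markers were called lower. Their part in the result was not tested. Conventional dendritic-like cells had 81.2, 91.0 and 118 CPM in controls and 134, 149 and 379 CPM in the anemic mice, again without overlap (0.767% of the genes of this class), with 0.68% of the genes called higher. Their log2 fold change was 0.98 ± 0.21 (adjusted p = 0.0302). The call was lost in 6 of 25 alternatives, each time 1 mouse was left out (control 1, 2, 4, 5 or 6, or anemia 3), with adjusted p from 0.0641 to 0.0853. The value of anemia 2, 379 CPM, stood apart, and without both anemia 2 and anemia 3 the log2 fold change was 0.56 (adjusted p = 0.0119). Globin in this class was at 1227 to 8312 CPM in controls and at 5093 to 18792 CPM in anemic mice, with 0 of 4 genes called, and its part was not tested.

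Neutrophil-like cells, at a low level of Mif, had 22.2, 43.9 and 56.2 CPM in controls and 65.6, 93.9 and 343 CPM in the anemic mice. The 6 anemic mice were again all above the 6 controls (1.16% of the genes of this class). A log2 fold change of 1.66 ± 0.38 was fitted, but the adjusted p was 0.0772, and 7 of 25 alternatives passed. The groups filled the clusters differently, with 1832 control and 4229 anemic cells in cluster 12 and 1564 and 1367 in cluster 30. Within clusters the control and anemic means were 86.7 and 235 CPM (cluster 12), 25.7 and 58.4 CPM (cluster 29) and 33.4 and 64.5 CPM (cluster 30). Leaving out anemia 2, whose 343 CPM lay far above the others, gave 1.16 (adjusted p = 0.0273), leaving out both anemia 2 and anemia 3 gave 0.90 (adjusted p = 0.0235), and leaving out anemia 1 gave 1.81 (adjusted p = 0.0498). The thinned share of cells with a Mif UMI was 3.04 ± 0.942% in control and 11.3 ± 8.09% in anemic mice. In erythroid-like cells, the class with the lowest level, it was 2.69 ± 1.31% and 3.21 ± 0.979%, so that the control value of neutrophil-like cells was close to the lowest of any class. Globin UMIs here were 1411 to 12282 CPM in controls and 15590 to 29461 CPM in anemic mice, and their part was not tested.

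In the other lymphoid, erythroid, basophil or mast-like and cholangiocyte-like classes, no rise of Mif was called. NK-like cells had 162, 190 and 252 CPM in controls and 214, 279 and 810 CPM in the anemic mice, with 5 of 6 anemic mice above all controls and a log2 fold change of 0.98 ± 0.28 (adjusted p = 0.138). The highest value was that of anemia 2, and without both anemia 2 and anemia 3 the log2 fold change was 0.40 (adjusted p = 0.168), while DESeq2 (0.98, adjusted p = 0.0378) and joint voom (0.66, adjusted p = 0.00636) called it. Pre-B-like cells differed little, with 305, 353 and 373 CPM against 348, 410 and 441 CPM and a log2 fold change of 0.20 ± 0.07 (adjusted p = 0.188). B-like cells had 162 to 202 CPM in controls and 151 to 240 CPM in anemic mice (0.17 ± 0.10, adjusted p = 0.402), and T-like cells 157 to 196 CPM and 128 to 229 CPM (0.02 ± 0.12, adjusted p = 0.986). Cholangiocyte-like (0.05 ± 0.14, adjusted p = 0.962) and basophil or mast-like cells (0.32 ± 0.34, adjusted p = 0.85) did not pass either. Mif was called in 0 of 23 alternatives in the former and in 1 of 21 in the latter. In erythroid-like cells the levels were 36.4 to 136 CPM in controls and 49.0 to 162 CPM in anemic mice, and the log2 fold change of 0.77 ± 0.18 (adjusted p = 0.075) includes the shift in scale of 0.39. It was 0.24 without TMM factors (adjusted p = 0.833) and 0.60 without both anemia 2 and anemia 3 (adjusted p = 0.184), and DESeq2 (0.75, adjusted p = 0.0179), the fit without a filter (0.85, adjusted p = 0.0116) and that without cell cycle UMIs (1.02, adjusted p = 0.0173) called it.

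**Figure D3:**
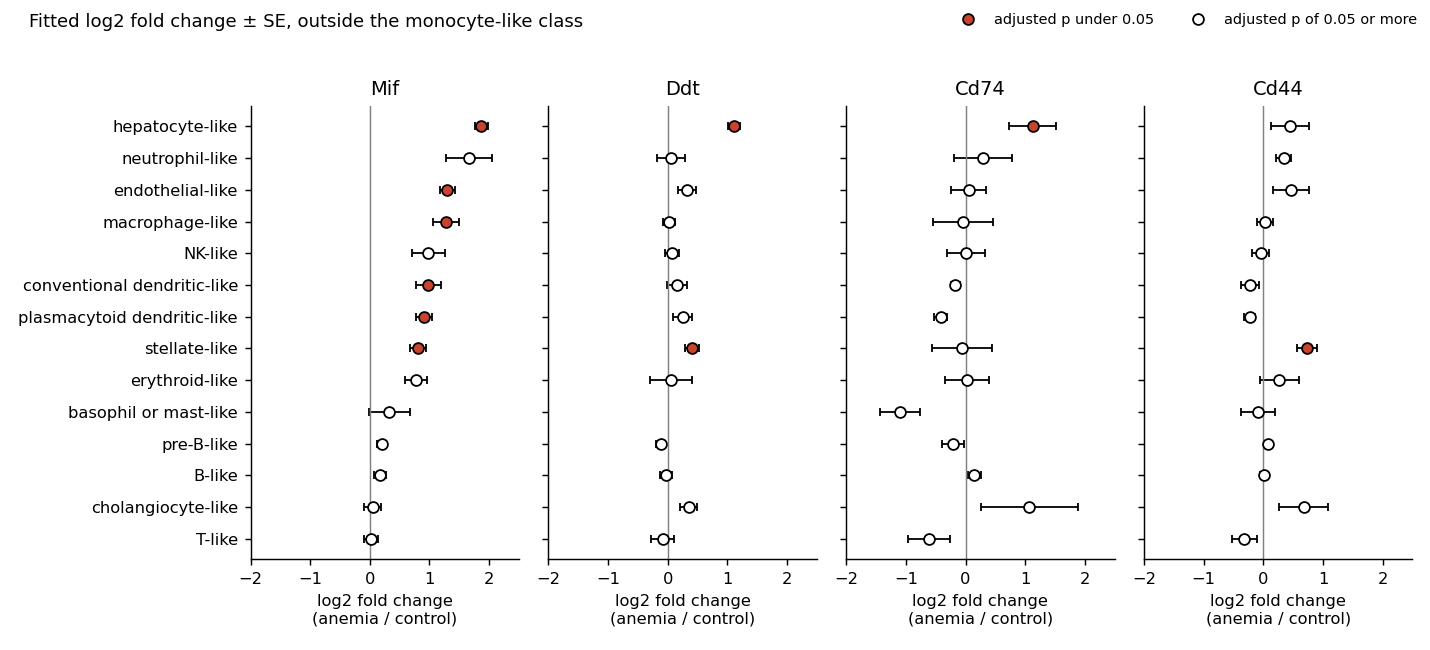
Log2 fold change (anemia over control, ± SE, 6 and 6 mice) of the 4 genes in the 14 classes other than the monocyte-like class, from edgeR fits with TMM factors. Filled points have an adjusted p under 0.05, as for Mif in 6 classes, Ddt in 2, Cd74 in 1 and Cd44 in 1, and Ddt has no point in basophil or mast-like cells, where it was not tested.

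Whether the difference of a class departed from that of the other classes was tested for each member by exact permutation of the group labels (all splits of the 12 mice, two-sided, 56 tests, Benjamini-Hochberg adjustment) on the log2(CPM + 1) level of a class minus the mean of the other 13 classes of the same mouse. The smallest p this design allows is 0.00216, and 10 of the 56 differences passed. The differences of a member are tied to each other, since a larger rise in some classes lowers the values of the others. Mif rose more than in the other classes in hepatocyte-like cells (0.93 on the log2 scale, exact permutation test, adjusted p = 0.0173), endothelial-like cells (0.51, adjusted p = 0.0303) and macrophage-like cells (0.46, adjusted p = 0.0485). It fell behind the other classes in T-like cells (-0.76, exact permutation test, adjusted p = 0.0173), B-like cells (-0.57, adjusted p = 0.0173), pre-B-like cells (-0.50, adjusted p = 0.0173) and cholangiocyte-like cells (-0.67, adjusted p = 0.0485). Without both anemia 2 and anemia 3, 7 differences passed, and those of Mif in macrophage-like cells (0.32, exact permutation test, adjusted p = 0.114) and in cholangiocyte-like cells (-0.59, adjusted p = 0.114) did not. The difference of Ddt was higher than in the other classes in hepatocyte-like (0.89, exact permutation test, adjusted p = 0.0173), cholangiocyte-like (0.41, adjusted p = 0.0173) and stellate-like cells (0.38, adjusted p = 0.0173). The mean of the other classes includes basophil or mast-like cells, where Ddt had 26 UMIs in all and 0 to 44.0 CPM per mouse. Its difference there was -1.91 on the log2(CPM + 1) scale, and values without that class were not computed. In cholangiocyte-like cells, 85.2% of them called doublets, the difference of Ddt itself did not pass edgeR's test (0.35 ± 0.14, adjusted p = 0.441). No difference of Cd74 or Cd44 passed. Leaving out single mice reduced the number that passed to as few as 5 (without control 1, control 5 or control 6).

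Ddt rose in hepatocyte-like cells, where its level is highest. Control mice had 365, 431 and 492 CPM as lowest, median and highest value and anemic mice 692, 719 and 846 CPM, without overlap, in a class where 8.19% of the genes did not overlap in this direction and 27.8% were called higher. Its fitted log2 fold change was 1.11 ± 0.10 (adjusted p = 2.43e-07) and 25 of 25 alternatives passed, among them the repeated fit named above for Mif. Within the 4 clusters of the class the difference was smaller. Control and anemic means were 975 and 1108 CPM in cluster 14, 580 and 682 CPM in cluster 15, 234 and 282 CPM in cluster 20 and 550 and 720 CPM in cluster 24, and the groups overlapped in all but cluster 24. Cluster 14, with the highest Ddt, held 1528 control and 4027 anemic cells, and cluster 20, with the lowest, 2428 and 1339, so that the class value includes this shift in makeup. Among males, the average was 410 CPM over 2 control mice and 745 CPM over 4 anemic mice, and among females it was 433 CPM over 4 control mice and 715 CPM over 2 anemic mice. The thinned share of cells with a Ddt UMI was 34.2 ± 2.79% in control and 49.5 ± 3.07% in anemic mice. In stellate-like cells Ddt was at 20.5 to 31.1 CPM in controls and 26.1 to 36.6 CPM in anemic mice, with 5 of 6 anemic mice above all controls (0.40 ± 0.12, adjusted p = 0.0274). That call was lost in 11 of 25 alternatives, among them without called doublets (0.15, adjusted p = 0.788), without cells that had a cell cycle UMI (0.10, adjusted p = 0.774), without both anemia 2 and anemia 3 (0.34, adjusted p = 0.0885) and in 7 of 12 fits without 1 mouse (control 1, 2 or 6, or anemia 2, 4, 5 or 6). In macrophage-like cells, where Mif rose, Ddt was at 37.9 to 49.5 CPM in controls and 35.9 to 48.7 CPM in anemic mice (0.02 ± 0.10, adjusted p = 0.921). Its values in endothelial-like cells were 18.1 ± 3.67 CPM and 20.9 ± 3.30 CPM (0.33 ± 0.15, adjusted p = 0.132).

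Cd74 was called higher in hepatocyte-like cells only, and the call depended on single libraries. Control mice had 137, 214 and 295 CPM and anemic mice 112, 277 and 813 CPM as lowest, median and highest value. The highest anemic values were those of anemia 2 (813 CPM) and anemia 3 (716 CPM), while 2 anemic mice lay below every control. The log2 fold change was 1.12 ± 0.39 (adjusted p = 0.023), 0.78 without anemia 2 (adjusted p = 0.0619), 0.86 without anemia 3 (adjusted p = 0.069) and 0.21 without both (adjusted p = 0.465). It was also lost without control 4 (1.02, adjusted p = 0.0534) or control 6 (1.05, adjusted p = 0.0513), without TMM factors (0.75, adjusted p = 0.113), with at most 10% mitochondrial UMIs (0.77, adjusted p = 0.122), without cell cycle UMIs (1.05, adjusted p = 0.061) and under joint voom (0.37, adjusted p = 0.707). The summed neutrophil markers in hepatocyte-like cells were highest in the same libraries, at 1206 CPM in anemia 2 and 2266 CPM in anemia 3 against 226 to 524 CPM in the other anemic and 109 to 781 CPM in the control mice. Macrophage markers reached 1072 CPM in anemia 2 and 503 CPM in anemia 3, against 367 to 509 CPM in control mice, with 0 of 10 at 0 in either list. Other lists went the other way in this class. B-cell markers were at 316 to 867 CPM in controls and 151 to 261 CPM in anemic mice. Conventional dendritic markers were at 23.7 to 38.3 CPM and 12.9 to 23.8 CPM. The part of these lists in the result was not tested.

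In plasmacytoid dendritic-like cells, Cd74 had 6848, 8750 and 10306 CPM in controls and 5317, 6432 and 7871 CPM in the anemic mice, with 3 of 6 anemic mice below all controls. This amounted to a log2 fold change of -0.41 ± 0.11 (adjusted p = 0.0725), and 6 of 25 alternatives passed, among them the fit without both anemia 2 and anemia 3 (-0.54, adjusted p = 0.0289) and the fit without called doublets (-0.51, adjusted p = 0.00102). Leaving out control 6 also brought it past the threshold (-0.48, adjusted p = 0.0435). In endothelial-like cells the log2 fold change was 0.05 ± 0.29 (adjusted p = 0.925) with all mice and -0.57 (adjusted p = 0.0309) without both anemia 2 and anemia 3, which had the highest levels of all mice (294 and 252 CPM). B-cell markers in endothelial-like cells were at 442 to 651 CPM in controls and at 282 to 419 CPM in anemic mice, with 5 of 10 called lower and 0 at 0. Cluster 50, where Cd74 averaged 2179 ± 541 CPM in controls and 2166 ± 697 CPM in 5 anemic mice, held 406 control and 173 anemic cells. The part of either in the value without both mice was not tested. In the classes with most Cd74, the levels were 39487 to 54602 CPM in controls and 38281 to 46836 CPM in anemic conventional dendritic-like cells (-0.17 ± 0.08, adjusted p = 0.391). B-like cells had 17348 to 23383 CPM and 16707 to 25927 CPM (0.14 ± 0.11, adjusted p = 0.538). The lowest fitted values of Cd74 were those of basophil or mast-like cells (-1.10 ± 0.33, adjusted p = 0.17), with 449 to 1950 CPM in controls and 128 to 607 CPM in anemic mice, and of T-like cells (-0.61 ± 0.35, adjusted p = 0.732), and neither passed.

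Cd44 rose in stellate-like cells. Control mice had 84.8, 116 and 156 CPM and anemic mice 148, 170 and 252 CPM as lowest, median and highest value, with 5 of 6 anemic mice above every control. The log2 fold change was 0.74 ± 0.17 (adjusted p = 0.00737), and 25 of 25 alternatives passed, with values from 0.59 to 0.98. The groups filled the clusters differently. Cluster 21, with 1684 control and 2017 anemic cells, had 201 ± 29.3 CPM of Cd44 in controls and 217 ± 50.0 CPM in anemic mice, and cluster 31, with 2070 and 836 cells, had 82.9 ± 31.7 CPM and 160 ± 64.0 CPM. Markers of neutrophils, a class rich in Cd44, were at 136 to 340 CPM in stellate-like cells of controls and at 246 to 1134 CPM in those of anemic mice, with 6 of 9 tested markers called higher, 1 called lower and 0 of 10 at 0. Their part in the result was not tested. By sex, the 2 male control mice averaged 151 CPM and the 4 male anemic mice 169.7 CPM, against 102 CPM in 4 female control and 209 CPM in 2 female anemic mice. Neutrophil-like cells had 840 to 1225 CPM of Cd44 in controls and 1166 to 1831 CPM in anemic mice, with 4 of 6 anemic mice above all controls (0.34 ± 0.13, adjusted p = 0.237). Within clusters the control and anemic means were close, at 2840 and 2898 CPM (cluster 12), 1146 and 1287 CPM (cluster 29) and 466 and 428 CPM (cluster 30), while cluster 12, with the most Cd44, held 1832 control and 4229 anemic cells. In macrophage-like cells the levels were 1607 to 2376 CPM and 1520 to 2288 CPM (0.02 ± 0.13, adjusted p = 0.948).

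In monocyte-like cells, from which Mif was chosen, the values are given without a test. Mif was at 58.8, 74.7 and 122 CPM in the lowest, median and highest control mice and at 117, 175 and 498 CPM in the anemic mice. The highest levels were those of anemia 2 (498 CPM) and anemia 3 (351 CPM), 4 of 6 anemic mice were above every control, and 0.366% of the genes of this class were called higher. The fitted log2 fold change was 1.65 with all mice and 0.82 without both anemia 2 and anemia 3. The same fit gave 0.20 for Ddt, 0.47 for Cd74 and -0.20 for Cd44. The thinned share of cells with a Mif UMI was 5.84 ± 1.43% in control and 16.6 ± 9.13% in anemic mice (12.8 ± 2.70% and 36.3 ± 16.0% unthinned, at median depths of 2060 and 3391 UMIs per cell).

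The class held 10168 cells, of which anemia 2 gave 4668 and anemia 3 gave 2123, and it consisted of 2 clusters that the groups filled differently. Control mice had 1555 cells (82.7%) in cluster 23 and 326 (17.3%) in cluster 9. Anemic mice had 1976 cells (23.8%) in cluster 23 and 6311 (76.2%) in cluster 9, with 68.0% of the latter from anemia 2. Within cluster 23, Mif was at 51.6 to 96.6 CPM in control mice and 99.4 to 313 CPM in anemic mice. Within cluster 9 it was at 62.8 to 170.5 CPM in control mice, counted from 6 to 67 UMIs per mouse, and at 120 to 510 CPM in anemic mice, where 3 anemic mice were within the control range. Mif was thus higher in anemic mice on average in both clusters, with fitted log2 fold changes of 1.23 in cluster 9 and 1.40 in cluster 23. For Ddt (-0.60 and 0.63), Cd74 (-0.50 and 0.36) and Cd44 (0.06 and -0.30) the clusters gave opposite signs.

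**Figure D4:**
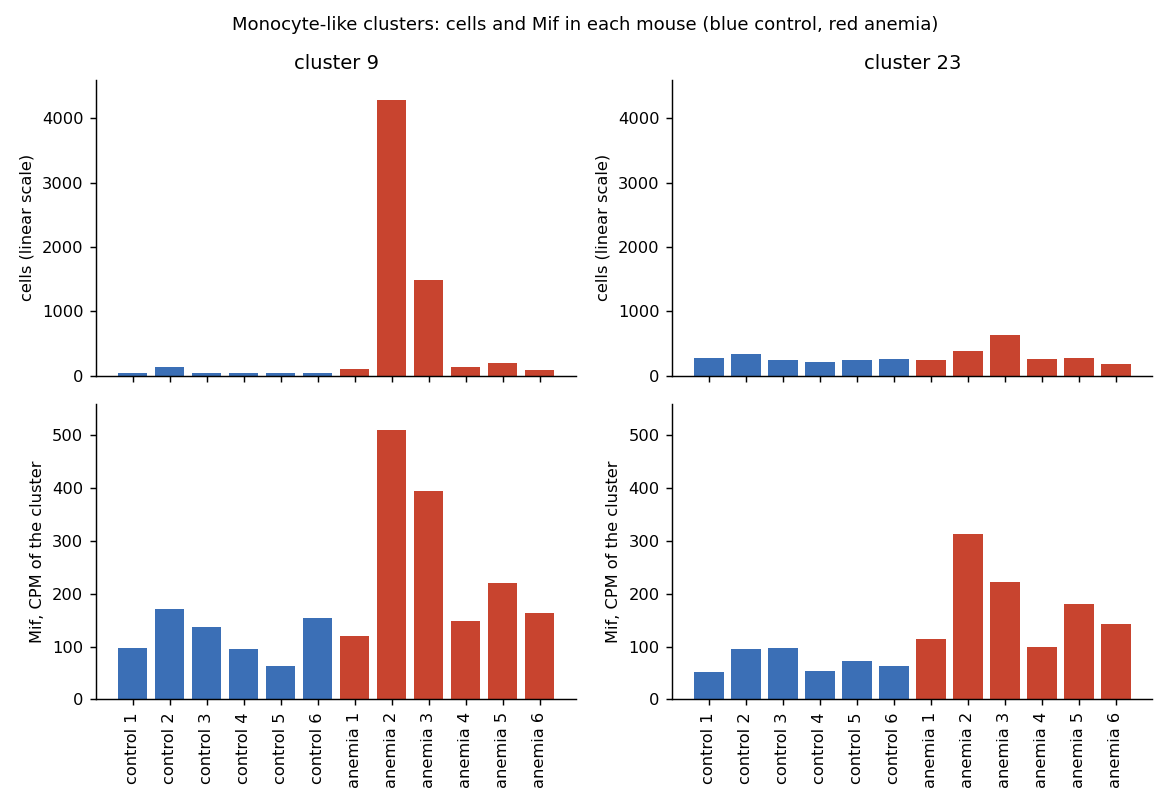
Number of cells (top) and Mif level in CPM (bottom) in both clusters of the monocyte-like class for each mouse (blue control, red anemia), on linear axes. Anemia 2 and anemia 3 gave most cells of cluster 9 and had the highest Mif level in both clusters, 510 and 395 CPM in cluster 9 and 313 and 222 CPM in cluster 23.

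The genes around the members were read as whole lists. Of 12 genes for MIF receptors, binding partners and signalling, 6 of 125 tests in the 14 classes were called higher and 1 lower, shares of 4.8% and 0.8% beside 4.2% and 4.37% of all genes. The chemokine receptor genes were not among the called ones apart from Ackr3 in stellate-like cells (0.49 ± 0.14, adjusted p = 0.0325), its highest class at 48.9 ± 11.4 CPM. Cxcr2 was highest in neutrophil-like cells (147 ± 19.7 CPM) and Cxcr4 in monocyte-like cells (288 ± 98.5 CPM). Ptgs2, the inducible cyclooxygenase that MIF signalling is known to raise, rose in stellate-like (2.40 ± 0.43, adjusted p = 0.00176), macrophage-like (2.37 ± 0.48, adjusted p = 0.0206) and conventional dendritic-like cells (1.27 ± 0.29, adjusted p = 0.039). Its levels were 4.88 ± 3.84 CPM in controls and 24.8 ± 12.2 CPM in anemic mice in stellate-like cells, and 4.19 ± 1.69 CPM and 19.7 ± 14.3 CPM in macrophage-like cells. These are low beside its highest class, basophil or mast-like cells (576 ± 170 CPM). Of the neutrophil markers tested in stellate-like cells, 6 of 9 were called higher and 1 lower. The part of MIF or of RNA from other cells in the rises of Ptgs2 was not tested. Cops5, which encodes the MIF-binding subunit JAB1 of the COP9 signalosome, rose in hepatocyte-like cells (0.73 ± 0.11, adjusted p = 2.26e-05). Mapk3 fell in stellate-like cells (-0.21 ± 0.07, adjusted p = 0.0463).

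Of 12 genes for MHC class II and the processing of the invariant chain, the partners of Cd74, 4 of 138 tests were higher (2.9%) and 3 lower (2.17%). Both shares lay below those of all genes, 4.2% and 4.37%. Ciita, the activator of MHC class II genes, rose in B-like cells from 11.0 ± 2.09 to 23.8 ± 9.84 CPM (1.12 ± 0.23, adjusted p = 0.0141), and the peptide-loading chain H2-DMb2 rose there too (0.41 ± 0.09, adjusted p = 0.0294). In plasmacytoid dendritic-like cells, H2-Aa (-0.57 ± 0.11, adjusted p = 0.0154) and H2-Ab1 (-0.61 ± 0.14, adjusted p = 0.0282) fell. Ctsl, a cathepsin that degrades the invariant chain, rose in endothelial-like cells from 874 ± 71.9 to 1357 ± 165 CPM (0.76 ± 0.09, adjusted p = 0.000119). It was also called in hepatocyte-like cells (0.29 ± 0.10, adjusted p = 0.0198), but only relative to the median gene, with 488 ± 21.5 and 476 ± 56.2 CPM.

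Of 13 genes for CD44 ligands, hyaluronan turnover and the proteins that tie CD44 to the cytoskeleton, 4 of 117 tests were higher (3.42%) and 7 lower (5.98%). These shares were near those of all genes, 4.2% and 4.37%. In stellate-like cells, where Cd44 rose, the hyaluronan synthase Has1 rose (1.52 ± 0.27, adjusted p = 0.00176) and the hyaluronidase Hyal2 fell (-0.69 ± 0.08, adjusted p = 0.000158). The CD44-binding membrane linkers moved apart in endothelial-like cells, where Rdx rose (0.98 ± 0.13, adjusted p = 0.000254) and Ezr fell (-0.65 ± 0.10, adjusted p = 0.000536). Ezr went from 31.1 to 18.2 CPM there and was highest in B-like cells (645 CPM). Of 10 B-cell markers, 5 were called lower in endothelial-like cells, and their part in the fall of Ezr was not tested. Lyve1, a hyaluronan receptor of endothelium, fell in hepatocyte-like cells from 25.0 ± 5.33 to 8.58 ± 2.93 CPM (-1.15 ± 0.19, adjusted p = 9.72e-05), as did Mmp14 (-0.55 ± 0.11, adjusted p = 0.000326) and Msn (-0.49 ± 0.19, adjusted p = 0.0358). Lyve1 (500 CPM) and Mmp14 (326 CPM) were highest in endothelial-like cells and Msn (764 CPM) in monocyte-like cells. In hepatocyte-like cells, 2 of 8 tested B-cell markers were also called lower, while 3 of 9 tested neutrophil markers were called higher. The part of RNA from other cells in these falls was not tested.

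Of 15 HIF-1 target genes, glycolytic enzymes among them, 65 of 198 tests in the 14 classes were called higher (32.8%) and 2 lower (1.01%). The shares of all genes were 4.2% and 4.37%. The list had been chosen with a rise of several of its genes in these data known, so the count is a description. In hepatocyte-like cells 11 of 15 rose, such as the mitophagy receptor Bnip3 (2.28 ± 0.13, adjusted p = 2.05e-09) and Gapdh (2.25 ± 0.11, adjusted p = 6.05e-10), and P4ha1 and Vegfa fell. In macrophage-like cells 12 of 15 rose, among them Vegfa (2.96 ± 0.22, adjusted p = 1.27e-05), Bnip3 (1.84 ± 0.17, adjusted p = 0.000129) and Pgk1 (1.45 ± 0.22, adjusted p = 0.00589). In endothelial-like cells 11 of 15 rose, with the glucose transporter Slc2a1 (1.68 ± 0.12, adjusted p = 8.43e-07) and Pgk1 (1.33 ± 0.08, adjusted p = 1.97e-07) leading. In pre-B-like cells 9 of 15 rose, such as Bnip3 (0.89 ± 0.11, adjusted p = 0.000106), though Mif was not called there. In stellate-like cells 9 of 15 rose, and in T-like and B-like cells 1 of 13 and 1 of 15. Beside these counts, 27.8% of all genes were called higher in hepatocyte-like and 1.42% in macrophage-like cells. The share was 7.89% in endothelial-like, 0.774% in pre-B-like, 8.36% in stellate-like, 0.519% in T-like and 0.65% in B-like cells. Of 10 cell cycle genes, 6 of 133 tests were higher (4.51%) and 3 lower (2.26%), all but 1 of them in hepatocyte-like cells, where Cdk1 rose (0.72 ± 0.11, adjusted p = 4.74e-05) and Mki67 fell (-0.89 ± 0.20, adjusted p = 0.00115).

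Across the 14 classes, the median log2 fold change of the HIF-1 target list and the log2 fold change of Mif were related with Pearson's r = 0.857. The classes share their 12 mice and libraries, so this is a description over classes. Both values come from the same fits and carry the same shift in scale from TMM factors, 0.39 in hepatocyte-like and erythroid-like cells. Without TMM factors the log2 fold change of Mif in erythroid-like cells was 0.24, and r without TMM factors was not computed. Hepatocyte-like cells were highest in both, with a list median of 1.59. The next list medians were those of macrophage-like (0.81), erythroid-like (0.76), endothelial-like (0.75) and neutrophil-like cells (0.75), of which erythroid-like cells had the smallest log2 fold change of Mif, 0.77. B-like (0.11), cholangiocyte-like (0.14) and T-like cells (0.21) were lowest in both.

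**Figure D5:**
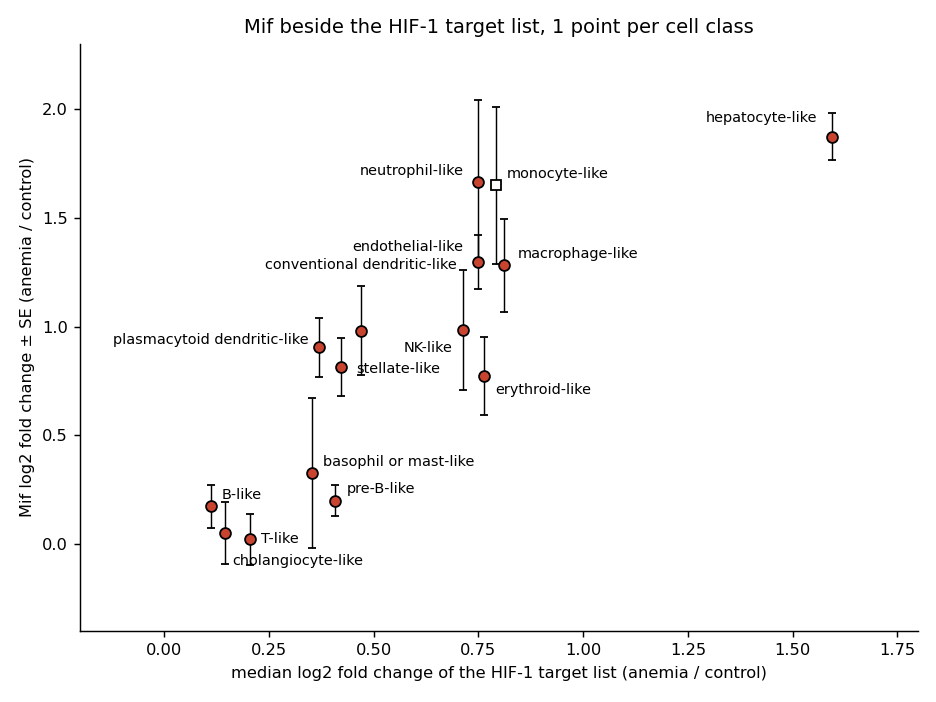
Log2 fold change of Mif (± SE) against the median log2 fold change of up to 15 HIF-1 target genes, anemia over control, with 1 point per cell class. Hepatocyte-like cells stand at the upper right (1.59 and 1.87), B-like, T-like and cholangiocyte-like cells at the lower left, and the monocyte-like class, from which Mif was chosen, is an open square that did not enter r.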

How the data were processed

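Single-cell libraries of 12 mouse livers (6 control, 6 anemia) were read as deposited. The authors aligned the reads with Cell Ranger (version 7.0.0 per the file headers, build mm10 per the submitters' processing notes, which also name Seurat), and the deposited values are UMI counts per gene and barcode, without normalization. As in the study's methods, barcodes under 500 or over 50000 UMIs, or with over 50% mitochondrial UMIs, were removed. The 4 members were left out of the 2000 variable genes that gave 20 principal components, a graph of 20 neighbours and Leiden clusters at resolution 2 (scanpy 1.11.5, leidenalg 0.10.2, Python 3.11.15, numpy 2.4.6, scipy 1.17.1, pandas 2.3.3).

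Of 63 clusters, 50 were named for 1 of 15 classes: at least 3 markers were raised by 1 on the log2 scale and no other class had more markers among the top 10 genes. Where fewer than 2 of its own were there, the score also had to lead by 0.1 and no other class could have more raised markers (B and pre-B not set against each other). These last conditions were set after the clusters were seen. Doublets were called from simulated doublets at 0.8% per 1000 barcodes, which took 11.5% to 17.0% of each library. How many real doublets this finds is not known, and they were kept.

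UMIs were summed per mouse and class, for mice with at least 20 cells, and all genes but mitochondrial and ribosomal protein genes were tested if they averaged 5 UMIs or more with edgeR 4.0.16 (quasi-likelihood test, TMM, R 4.3.3), tested on simulated data first. Alternatives were DESeq2 1.42.0, no TMM factors, other filters, a mitochondrial limit of 10%, a replicate block, a covariate for Y-linked expression, no called doublets, cells with fewer hepatocyte and globin UMIs, no cells with a cell cycle UMI, resolution 1, a joint voom model (limma 3.58.1) and each mouse left out. Hepatocyte-like and erythroid-like cells were all kept in the alternative with fewer hepatocyte and globin UMIs, which repeats the fit as reported there. Intervals and SDs for low values also carry counting error. Shares of all genes without overlap between the groups are given for classes and not for single clusters.

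The members, lists and tests were chosen with earlier results of these data known. Named beside the members were, per list and class, at most 3 called genes with the largest change and at least 10 CPM, and the 3 genes most like each member. Replicate numbers were not taken as pairs. Nothing in the labels says that mice of a group came from different litters, so p-values measure the spread between mice. A result for 1 gene of the MIF signalling list is not reported here.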

Additional observations from a re-analysis of the deposited data

Results flagged for a closer look

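Single mice stood apart from the other 5 of their group in 15 of 120 groups by Dixon's test at the 95% level (critical ratio 0.625), which flags about 1 in 20 groups by chance. Of these, 6 were anemia 2. Its Mif was far above the other anemic mice in NK-like (810 CPM), conventional dendritic-like (379 CPM), neutrophil-like (343 CPM) and erythroid-like cells (162 CPM), and its Cd74 in cholangiocyte-like (5158 CPM) and neutrophil-like cells (1716 CPM). Control 3 had low Cd44 in conventional (402 CPM) and plasmacytoid dendritic-like cells (684 CPM) and high Cd44 in erythroid-like cells (121 CPM). Control 1 had high Mif (173 CPM) and Cd74 (1950 CPM) in basophil or mast-like cells. Cd74 of control 2 was high in T-like cells (331 CPM). Ddt was high in B-like cells of control 5 (57.5 CPM), T-like cells of control 4 (62.9 CPM) and hepatocyte-like cells of anemia 5 (846 CPM).

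The difference between anemic and control mice departed from that of the other classes, by exact permutation, for Mif in hepatocyte-like (0.93 on the log2 scale), endothelial-like (0.51), macrophage-like (0.46), pre-B-like (-0.50), B-like (-0.57), cholangiocyte-like (-0.67) and T-like cells (-0.76). It did so for Ddt in hepatocyte-like (0.89), cholangiocyte-like (0.41) and stellate-like cells (0.38).

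Cells of the 13 unnamed clusters entered no comparison. Their Mif averaged 195 ± 14.0 CPM in controls and 362 ± 144 CPM in anemic mice, with ranges of 177 to 214 CPM and 261 to 604 CPM. The highest values were those of anemia 2 (604 CPM) and anemia 3 (476 CPM), against 261 to 289 CPM in the other anemic mice. The share of all genes without overlap in these cells was not computed. Doublets were called for 42.0% of these cells.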

How the results depend on the processing

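Counted under the alternatives were log2 fold changes of Mif in the 14 classes and of the other members in selected classes. Class-specific differences that passed with all mice and the highest class of each member were counted with them. Of these values, 546 stayed as reported, 66 no longer passed the threshold, 19 came to pass it, 17 changed sign and 1 highest class moved. The sign changes concern Mif in T-like cells, which was -0.0237 without TMM factors, -0.0027 without called doublets, -0.0244 in cells with fewer hepatocyte and globin UMIs, -0.0486 without cell cycle UMIs and -0.0653 to 0.0883 with 1 mouse left out. They also concern Mif in cholangiocyte-like cells, which was -0.0433 in cells with fewer hepatocyte and globin UMIs, -0.0165 without both anemia 2 and anemia 3 and -0.0101 to 0.158 with 1 mouse left out. For Cd74 in endothelial-like cells the value was -0.06 without TMM factors, -0.0571 with the replicate block, -0.033 at resolution 1, -0.28 under joint voom, -0.57 without both anemia 2 and anemia 3 and -0.24 to 0.16 with 1 mouse left out. The cause was not tested.

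Added after the data had been seen were the fits without both anemia 2 and anemia 3 and those of each monocyte-like cluster. They moved the log2 fold change of Mif in monocyte-like cells from 1.65 to 0.82 without both mice, that of Ddt to -0.60 in cluster 9 and 0.63 in cluster 23, that of Cd74 to -0.50 and that of Cd44 to 0.0551 in cluster 9. The member calls outside that class numbered 10 in the fit as reported and 11 without both mice. The number of class-specific differences that passed was 5 to 10 with 1 mouse left out, against 10 with all mice. Without thinning, the share of cells with a Mif UMI differed by 23.5 percentage points in monocyte-like cells and 22.2 in hepatocyte-like cells, against 10.8 and 29.4 with thinning. At resolution 1, the highest level of Cd44 was in macrophage-like instead of monocyte-like cells.

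With the replicate number as a block, 12 member tests passed, among them Mif in neutrophil-like cells (1.48, adjusted p = 0.0244, edgeR) and Cd74 in plasmacytoid dendritic-like cells (-0.42, adjusted p = 0.0348), and 14425 genes were called over all classes against 13562. The labels give no meaning to the numbers, and mice with the same number did not in general deviate together: 39 of 90 correlations were over 0.1 (range -0.41 to 0.51), and in 0 of the 15 classes were all of them. The mice with numbers 1 and 4 were exceptions, and by Y-linked transcripts these were the only numbers given to mice of the same sex. Those with number 4, both female, were at 0.15 (cholangiocyte-like) to 0.51 (endothelial-like) in all classes but basophil or mast-like cells (0.00016). Those with number 1, both male, were at 0.14 (endothelial-like) to 0.39 (pre-B-like) in most classes. They were lower in cholangiocyte-like (0.091), erythroid-like (-0.022) and basophil or mast-like cells (-0.024). The part of sex in this was not tested. Cholangiocyte-like cells could not be fitted without called doublets. Ddt was under the count minimum in basophil or mast-like cells.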
